A study of Mus musculus with 3 samples.

Results

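The histone demethylase LSD1 and the genes of its partner complexes were examined for DNA methylation at CCGG sites in and around each gene. The set held 10 of the 21938 protein-coding genes of the annotation, namely the demethylases Kdm1a (LSD1) and Kdm1b (LSD2), the CoREST scaffolds Rcor1 and Rcor2, the deacetylases Hdac1 and Hdac2, and the NuRD subunits Chd4, Mbd3, Mta1 and Mta2. The genes were chosen by name, and every CCGG motif in a gene or within 10 kb of it was taken, which gave 773 of the 1630167 CCGG motifs of the GRCm38 reference. Of the positions in these windows, 514 were listed as CCGG sites in at least 1 of the 3 libraries. All libraries came from E14Tg2A, an established mouse embryonic stem cell line. The undifferentiated cells (day 0) grew with leukemia inhibitory factor. The untreated cells were collected at day 7 of differentiation, which was started by removing that factor and adding retinoic acid. The treated cells were differentiated in the same way and also received 3 mM pargyline, an inhibitor of monoamine oxidases that also inhibits LSD1. There was 1 library per condition of 1 cell line, so no p-value is given, and the 95% intervals cover counting error only. No RNA or protein was measured, so cell identity and the effect of pargyline on LSD1 could not be checked in these data.

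LSD1 removes methyl groups from histone H3 and works in complexes. In CoREST, a scaffold protein (RCOR1 or RCOR2) joins LSD1 to the deacetylases HDAC1 and HDAC2. In NuRD, the same deacetylases work with the nucleosome remodeler CHD4, the scaffold MBD3 and the metastasis-associated proteins MTA1 and MTA2. In embryonic stem cells, LSD1 together with NuRD shuts down enhancers of pluripotency genes during differentiation. Most of the genes are broadly expressed, and their promoters are rich in CpG, a class of promoter that usually lacks DNA methylation, whereas gene bodies are usually methylated.

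In MethylRAD, the enzyme FspEI cuts beside a methylated cytosine and releases a short fragment around it, so the reads at a CCGG site increase with its methylation. The authors listed sites with at least 5 reads, so an unlisted site had under 5 reads and is written here as 0. Reads were divided by the CCGG reads of the library, 31614085 for undifferentiated, 36654600 for untreated and 25767119 for treated cells, and are given as reads per 1000000 CCGG reads (scaled reads). The minimum of 5 reads corresponded to 0.158, 0.136 and 0.194 scaled reads, respectively. Both day 7 libraries are compared with the same undifferentiated library, so these comparisons share it.

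The following GRCm38 windows show the sites on which the results below turn, 30 bases each, on the forward strand of the chromosome from 5′ to 3′, with the CCGG motif in capitals. The first group shows promoter sites.
Kdm1a, upstream, chr4:136603568-136603597: gtgccaccactgcCCGGcttggtcagttct
Kdm1a, intron 1, chr4:136602189-136602218: cccactccggtccCCGGgaccagcggttcg
Hdac1, intron 1, chr4:129542379-129542408: agaatctccgccaCCGGgattaccgcagac
Mbd3, intron 3, chr10:80395039-80395068: acctggaaactgcCCGGgggctcacctgcc
Mta1, upstream, chr12:113097994-113098023: aaagcgtggggctCCGGatggccacccggg
Mta2, upstream, chr19:8941164-8941193: atgtgactagtgtCCGGttcacgcacgacg

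The second group shows sites of gene bodies and flanks that differed most between libraries, and 1 coding-exon site of Hdac1 that no library listed.
Kdm1b, intron 3, chr13:47050146-47050175: cgtagcaaggagaCCGGgtcattgtttcat
Rcor1, intron 2, chr12:111046106-111046135: tgatgctaccatgCCGGgtgacttgtaaag
Rcor1, intron 3, chr12:111083572-111083601: acaagacaagcgtCCGGcaggcaggtgcag
Chd4, intron 22, chr6:125111400-125111429: cattttctctaacCCGGgttatatcctagg
Mbd3, downstream flank, chr10:80391483-80391512: cagaaacatggccCCGGgggtggggtattg
Hdac1, coding exon, chr4:129522410-129522439: acacagtcatgacCCGGtctgtagtataga

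The promoters of these genes, taken as 1 kb on each side of the start site of every basic transcript, were largely without listed sites in all libraries, whereas most motifs of the gene bodies were listed. Of the 206 promoter motifs, 13 were listed in undifferentiated cells (6.31%, 95% exact Clopper-Pearson interval 3.40 to 10.5), 29 in untreated cells (14.1%, 9.64 to 19.6) and 38 in treated cells (18.4%, 13.4 to 24.4). The intervals of the undifferentiated and treated libraries did not overlap, and the untreated interval overlapped both. These intervals treat motifs as independent, although motifs of the same promoter are not. Over the promoters of all protein-coding genes, 16.7, 22.4 and 26.4% of motifs were listed, which is a higher share in each library. The members had a promoter motif listed in every library at 3.88% of motifs, against 13.1% over all protein-coding genes. A total of 152 promoter motifs of the members (73.8%) were listed in none of the libraries, against 67.5% over all protein-coding genes.

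The promoter sites found in differentiated cells were mostly close to the minimum. Of the listed promoter motifs, 4 of undifferentiated, 18 of untreated and 24 of treated cells had 5 to 9 reads, and with a minimum of 10 reads the numbers were 9, 11 and 14 (4.37, 5.34 and 6.80%, beside 11.7, 13.9 and 15.4% over all protein-coding promoters). After random thinning of each library to the CCGG reads of the treated library, the numbers were 12, 15 and 38, and the intervals of undifferentiated (3.05 to 9.95%) and untreated cells (4.13 to 11.7%) overlapped, while that of treated cells (13.4 to 24.4%) overlapped neither. The summed promoter reads of untreated over undifferentiated cells had a log2 ratio of 0.49 (0.23 to 0.75) after thinning. In the treated library, which had the fewest CCGG reads, thinning left the number as it was. After the same thinning, 15.3, 18.2 and 26.4% of the promoter motifs of all protein-coding genes were listed. Neighbouring motifs can be read from the same fragment, and when motifs that start within 26 bp were joined, 13, 26 and 33 separate places remained.

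**Figure D1:**
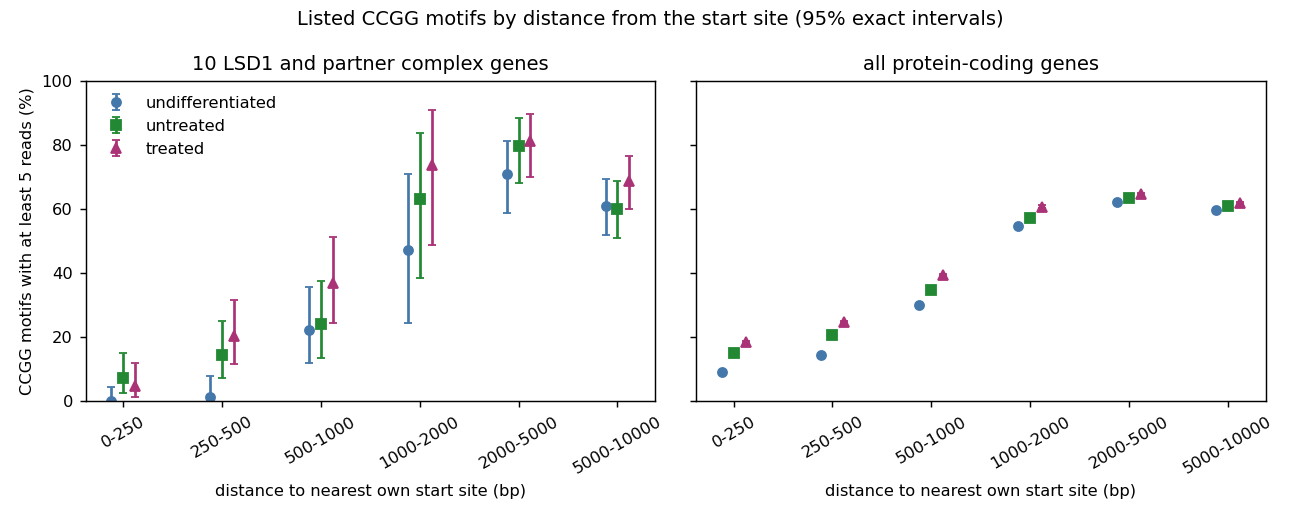
Share of CCGG motifs with at least 5 reads (y axis, percent) by distance from the nearest start site of the same gene (x axis, bp), for the 10 genes (left) and all protein-coding genes (right). Points are libraries and bars are 95% exact intervals, which cover counting error only. Within 250 bp of a start site, 0 of 83 motifs of the 10 genes had at least 5 reads in undifferentiated cells, 6 in untreated and 4 in treated cells, and the share rose to between 71.0 and 81.2% at 2000 to 5000 bp.

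The distance profile placed the few listed motifs away from the start sites. Within 250 bp of a start site, none of 83 motifs of the members was listed in undifferentiated cells, which at the upper end of the exact interval allows a share of up to 4.35%. In untreated cells 6 and in treated cells 4 were listed. Over all protein-coding genes, 9.29, 15.2 and 18.5% were listed there. Between 250 and 500 bp, 1 of 69 motifs was listed in undifferentiated, 10 in untreated and 14 in treated cells, beside 14.5, 20.7 and 24.8% over all protein-coding genes. Between 500 and 1000 bp, the numbers were 12, 13 and 20 of 54, beside 30.0, 34.7 and 39.4%.

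CpG content was higher at most promoter motifs than in the rest of the genes. Of the 206 promoter motifs, 126 lay in windows of high CpG content, 58 in windows of intermediate and 22 in windows of low CpG content. In high-CpG windows, 0.794% of the members' motifs were listed in undifferentiated, 9.52% in untreated and 7.14% in treated cells, and over all protein-coding promoters these shares were 2.05, 7.79 and 9.43%. In intermediate windows, the members' shares were 6.90, 12.1 and 27.6%, beside 11.7, 19.2 and 26.4% over all protein-coding promoters. In low-CpG windows they were 36.4, 45.5 and 59.1%, beside 53.9, 56.9 and 61.2%. None of the 293 body motifs lay in a high-CpG window.

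By gene, 7 members had at least 1 listed promoter motif before differentiation (64.5% of protein-coding promoters that hold a CCGG motif), 9 in untreated cells (76.1%) and all 10 in treated cells (78.1%). The 3 without one in undifferentiated cells were Kdm1b, Hdac1 and Chd4, and the only one without in untreated cells was Hdac2. More promoter motifs were listed in untreated than in undifferentiated cells in 8 members (background, 38.2%) and fewer in 2, Rcor1 and Hdac2 (10.0%). In treated cells, 9 members had more than in undifferentiated cells (45.8%), and Rcor1 had fewer (8.86%). Between treated and untreated cells, 5 members had more in treated cells (32.1%), namely Kdm1a, Kdm1b, Rcor2, Hdac1 and Hdac2, and Chd4, Mbd3 and Mta2 had fewer (18.1%). The members hold many promoter motifs, from 14 to 30 each, and promoters with a similar number of motifs were not compared separately.

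**Figure D2:**
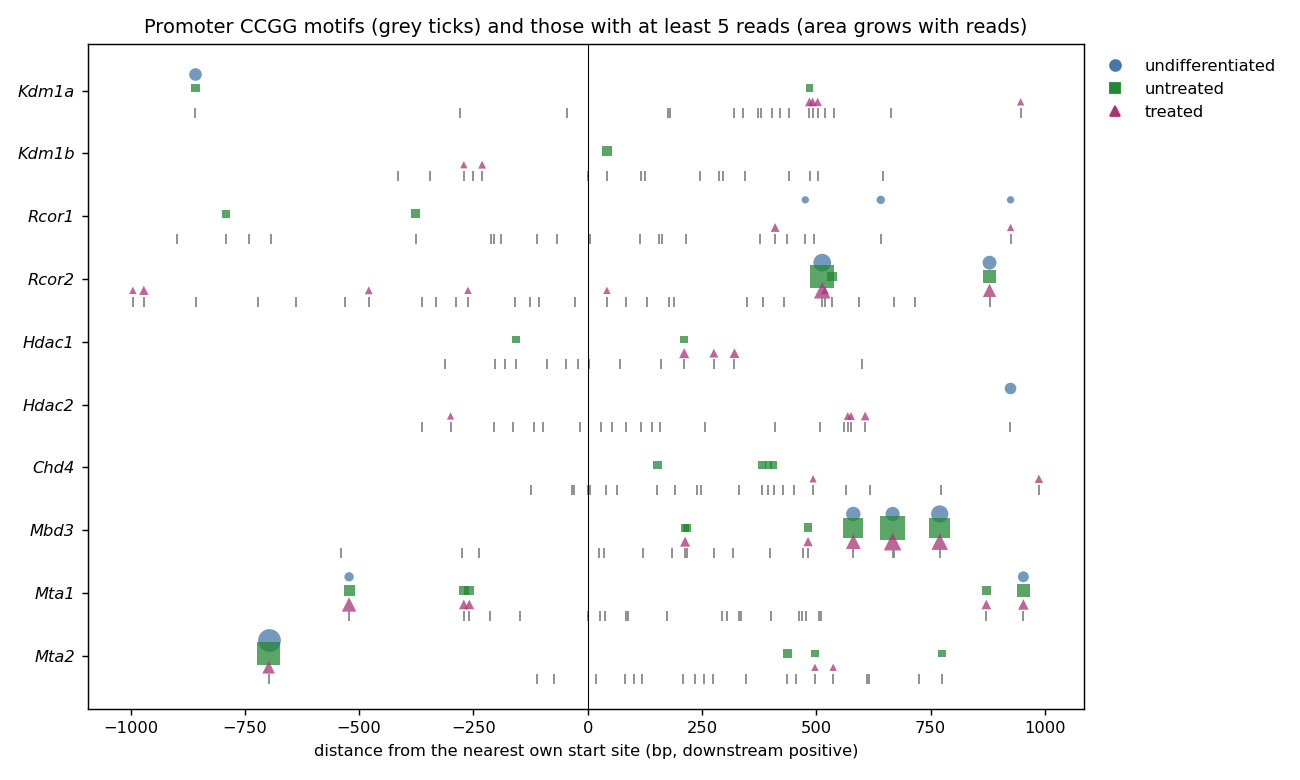
CCGG motifs within 1 kb of a start site of each gene (grey ticks), by distance from the nearest start site (x axis, bp, downstream positive). Coloured points are motifs with at least 5 reads, and their area grows with the reads. The largest points lie in Mbd3, Rcor2 and Mta2, and most motifs near position 0 have no point.

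Kdm1a, the gene of LSD1 itself, lies at chr4:136550540-136602723 on the minus strand. In its promoter, 1 of 19 motifs was listed in undifferentiated, 2 in untreated and 4 in treated cells. A site 858 bp upstream had 18 reads in undifferentiated and 8 in untreated cells and was not listed in treated cells. In intron 1, 3 motifs within one stretch at 485, 492 and 503 bp from the start site had 8, 8 and 7 reads in treated cells, and only the first was listed in untreated cells, with 5 reads. The 3 motifs lie close enough to share fragments and are not separate observations. Treated cells thus had listed sites inside the gene, and the upstream site was listed in the other libraries. In Kdm1b (chr13:47043499-47085279), which encodes the paralog LSD2, none of 17 motifs was listed in undifferentiated cells, 1 with 9 reads in untreated cells and 2 with 5 and 6 reads in treated cells. The Kdm1b sites also lie in the promoter of the neighbouring gene Tpmt.

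Among the CoREST scaffolds, Rcor1 (chr12:111039351-111115901) had few reads over its promoter in every library, with 17, 15 and 13 reads in undifferentiated, untreated and treated cells. No Rcor1 promoter motif had more than 9 reads, and the libraries listed largely separate motifs. Rcor2 (chr19:7267325-7275225) had 59, 96 and 88 promoter reads. Most of these came from 2 intronic sites, at 513 bp (37, 68 and 32 reads) and 879 bp (22, 18 and 20 reads) downstream of a start site, which were listed in all libraries. In treated cells, 6 further Rcor2 motifs were listed with 5 to 9 reads each, for 8 of 30 in all, against 2 in undifferentiated and 3 in untreated cells.

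The deacetylase promoters were almost unlisted before differentiation. Hdac1 (chr4:129516104-129542713, minus strand) had 0 of 14 motifs listed in undifferentiated cells, 2 with 5 reads each in untreated cells, and 3 with 10, 8 and 11 reads in treated cells, at 321, 276 and 211 bp inside the gene. Of these, the motif at 211 bp was listed on both day 7 lists. Hdac2 (chr10:36974544-37001889) had 1 of 21 motifs listed in undifferentiated cells, an intron 1 site at 923 bp with 15 reads. No Hdac2 promoter motif was listed in untreated cells, and in treated cells 4 others were listed with 5 to 8 reads. At this depth a site with 5 reads in 1 library and under 5 in another cannot be told apart from counting error.

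In NuRD, Chd4 (chr6:125095981-125130591) had 0 of 22 promoter motifs listed in undifferentiated cells, 4 in untreated cells with 5 to 8 reads and 2 in treated cells with 5 and 7 reads. The day 7 libraries had no listed Chd4 motif in common, and 3 of the untreated ones lie within 26 bp and can share fragments. Mbd3 (chr10:80392539-80399550, minus strand) had 82, 190 and 114 promoter reads, the most of any member in every library. Most of them came from 3 motifs at 581, 667 and 770 bp from a start site inside the gene, which had 24, 23 and 35 reads in undifferentiated, 48, 72 and 50 in untreated and 25, 37 and 32 in treated cells. These motifs lie in a coding exon and intron 3 of the transcript Mbd3-201. At the outer start sites of Mbd3, 1 coding-exon motif was listed, with 6 reads in untreated cells alone.

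Mta1 (chr12:113098278-113137206) had 2 of 23 motifs listed in undifferentiated cells and 5 in each day 7 library, and these were the same 5 motifs in both. The site 522 bp upstream had 9, 13 and 24 reads in undifferentiated, untreated and treated cells. A pair of motifs 271 and 259 bp upstream, 12 bp apart and thus able to share fragments, had 10 reads each in both day 7 libraries and was not listed in undifferentiated cells. In scaled reads the Mta1 promoter went from 0.696 in undifferentiated to 1.58 in untreated and 2.56 in treated cells, a log2 ratio of 1.19 (0.45 to 1.96) and 1.88 (1.16 to 2.65) over undifferentiated cells. The reads of the pair enter the day 7 sums at both motifs, so these ratios can be too high and their intervals too narrow. Mta2 (chr19:8941875-8952303) differed in the opposite direction in treated cells. Its upstream site, 698 bp before the start and within the neighbouring gene Eml3, had 62 reads in undifferentiated, 64 in untreated and 18 in treated cells. The scaled promoter reads of Mta2 were 1.96, 2.26 and 1.09, a log2 ratio of -1.06 (-1.73 to -0.43) for treated over untreated cells.

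Summed over the 10 promoters, the libraries had 275, 497 and 414 reads, or 8.70, 13.6 and 16.1 scaled reads. Fragments shared by neighbouring motifs can count more than once in these sums, so the intervals below can be too narrow. The log2 ratio over undifferentiated cells was 0.64 (0.42 to 0.86) for untreated and 0.89 (0.66 to 1.11) for treated cells, and between treated and untreated cells it was 0.24 (0.05 to 0.44). The median log2 ratios of all protein-coding promoters with at least 100 reads in both libraries together were 0.06, 0.23 and 0.19, but only 3, 2 and 4 of the 10 members reached 100 promoter reads in these comparisons, so this background describes promoters with more reads than most of the members. Mbd3 alone gave 82 of the 275, 190 of the 497 and 114 of the 414 promoter reads. If motifs listed in some library are set to 4 reads where they are not listed, the sums changed to a log2 ratio of 0.23 (0.05 to 0.41) for untreated and 0.42 (0.23 to 0.61) for treated over undifferentiated cells. With the start sites of all transcripts the ratios were 0.18 (0.09 to 0.27) and 0.19 (0.09 to 0.30), with a minimum of 10 reads 0.40 (0.16 to 0.63) and 0.39 (0.14 to 0.65), and scaled to all mapped reads 0.32 (0.11 to 0.54) and 0.19 (-0.03 to 0.42), where the interval of treated cells included 0. The value for treated over untreated cells was -0.13 (-0.32 to 0.06) when scaled to all mapped reads, -0.0028 (-0.24 to 0.23) with a minimum of 10 reads, 0.02 (-0.08 to 0.11) with the start sites of all transcripts and 0.49 (0.27 to 0.71) after thinning.

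**Figure D3:**
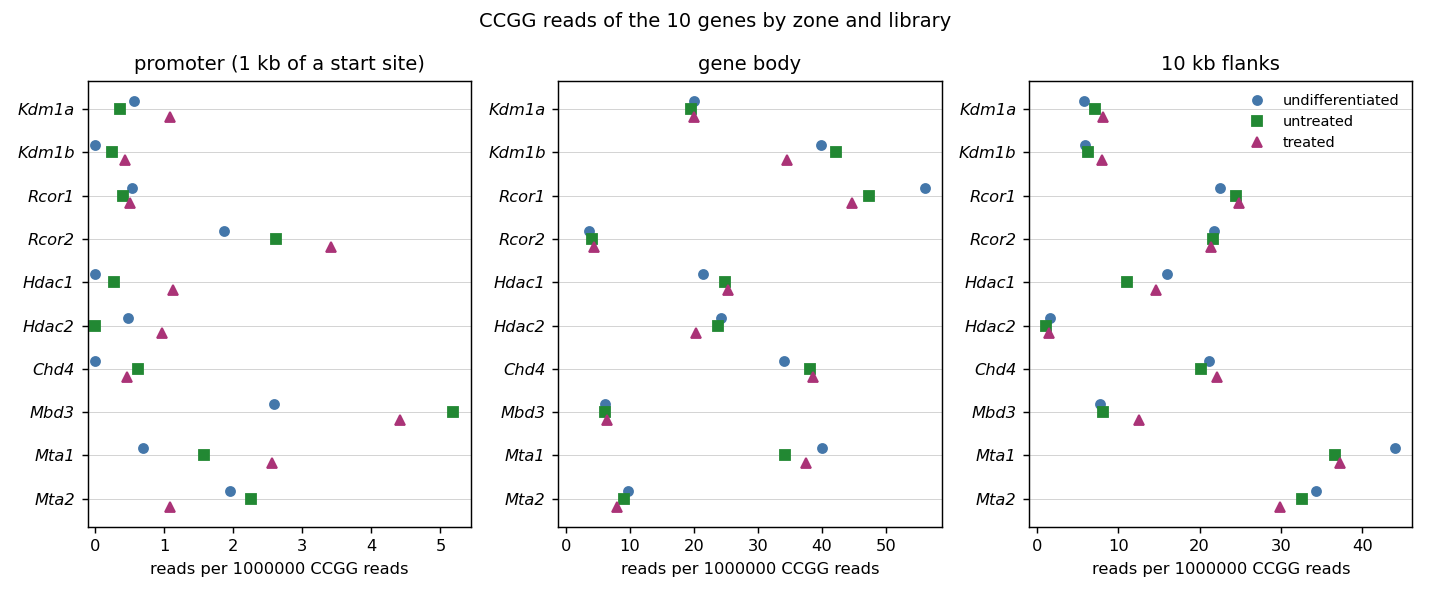
Reads per 1000000 CCGG reads (x axis) of each gene over its promoter, its body and its 10 kb flanks, with 1 point per library and no error bar. Promoter values stay below 6 scaled reads in every library, and body values reach 56.1 in Rcor1. The x axes of the panels differ.

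The gene bodies differed little between the libraries. Of the 293 body motifs, 219 were listed in undifferentiated (74.7%), 218 in untreated (74.4%) and 215 in treated cells (73.4%), against 66.6, 67.1 and 67.0% over all protein-coding genes. Summed over the members, the bodies had 255, 249 and 240 scaled reads. The log2 ratio was -0.03 (-0.08 to 0.01) for untreated over undifferentiated, -0.09 (-0.14 to -0.04) for treated over undifferentiated and -0.05 (-0.10 to -0.01) for treated over untreated cells. The medians over all protein-coding genes with at least 100 reads were -0.02, -0.04 and -0.02. None of the 10 members passed a 1.5-fold difference in any comparison. Over all protein-coding genes, 4.49% passed higher and 5.58% lower in untreated over undifferentiated cells, 6.40 and 6.65% in treated over undifferentiated cells, and 3.41 and 1.71% in treated over untreated cells. With so few members, 0 called genes do not set them apart from this background. Dividing by the mapped reads behind the deposited RPM values, in place of the CCGG reads, shifted the log2 ratio of every gene by -0.32, -0.69 and -0.38 in these comparisons. Every body ratio of a member above 0, those of Hdac1 and Chd4 over undifferentiated cells included, was below 0 on that scale, and relative to the other genes the ratios stayed the same. There, 0, 7 and 2 members passed 1.5-fold lower, beside 18.8, 70.0 and 16.4% of all protein-coding genes.

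**Figure D4:**
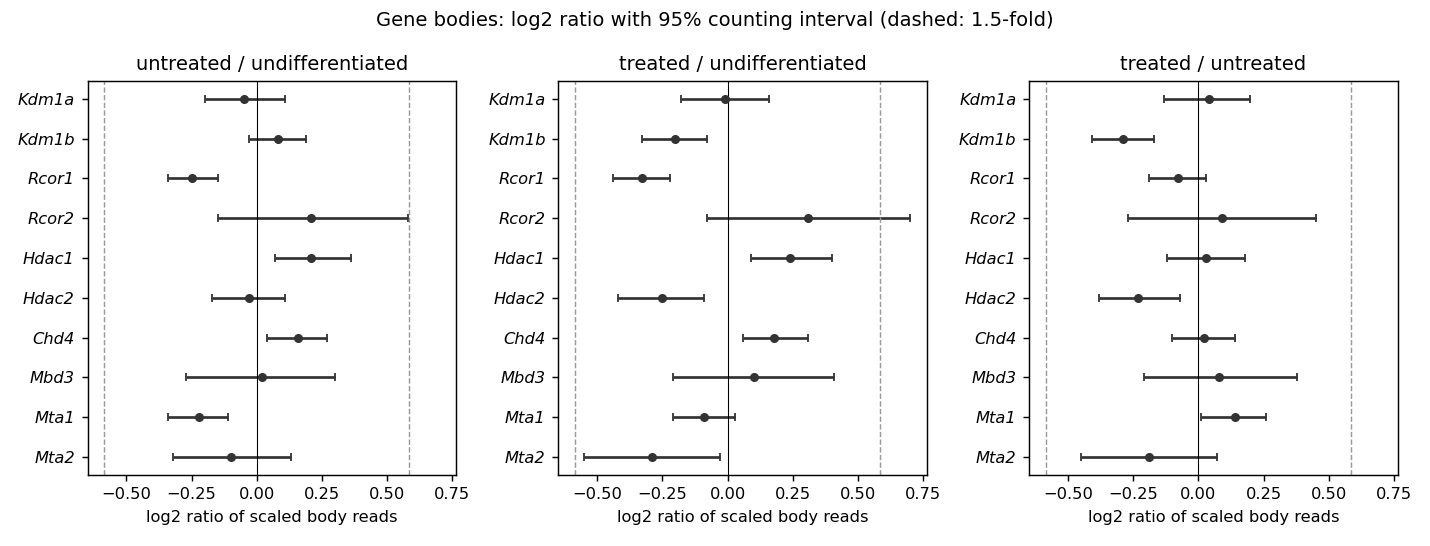
log2 ratio of scaled body reads of each gene for the 3 comparisons (x axis), with 95% exact counting intervals and dashed lines at 1.5-fold. Every point lies inside the dashed lines, between -0.33 and 0.31.

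The body of Kdm1a had 20.1 scaled reads in undifferentiated, 19.5 in untreated and 20.0 in treated cells, so relative to the CCGG reads the body of the LSD1 gene had nearly the same level in all libraries. Its log2 ratios were -0.05 (-0.20 to 0.11) for untreated and -0.01 (-0.18 to 0.16) for treated over undifferentiated cells, and 0.04 (-0.13 to 0.20) for treated over untreated cells. Scaled to mapped reads, the ratios over undifferentiated cells were -0.37 (-0.52 to -0.21) and -0.70 (-0.87 to -0.53). On that scale Kdm1a was among the members that passed 1.5-fold lower in treated cells, beside 70.0% of all protein-coding genes. The flanks of Kdm1a had 5.85, 7.12 and 8.11 scaled reads, with ratios of 0.28 (0.01 to 0.56) and 0.47 (0.18 to 0.76) over undifferentiated cells. Its promoter had 0.569, 0.355 and 1.09, with a ratio of 1.62 (0.62 to 2.69) for treated over untreated cells that rests on 28 and 13 reads. Most of the 28 reads came from the neighbouring intron 1 motifs of Kdm1a that can share fragments. The same fragments can thus be counted more than once, so this ratio can be too high and its interval too narrow. The body of Kdm1b had 39.9, 42.2 and 34.6 scaled reads, lowest in treated cells. The log2 ratio of treated over untreated cells was -0.29 for Kdm1b (-0.41 to -0.17). All 8 coding-exon motifs of the Kdm1b body were listed in each library, with 441, 584 and 288 reads.

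Rcor1 had the largest body difference below 0 over undifferentiated cells. Its body had 56.1 scaled reads in undifferentiated, 47.3 in untreated and 44.7 in treated cells, a log2 ratio of -0.25 (-0.34 to -0.15) and -0.33 (-0.44 to -0.22). Introns carried most of it, with 49.1, 40.4 and 38.2 scaled reads. Without the intron 2 and intron 3 sites described below, the Rcor1 ratios were -0.14 (-0.23 to -0.04) and -0.22 (-0.33 to -0.11). Rcor2 has 7 body motifs only and had 3.57, 4.15 and 4.42 scaled reads, with intervals that included 0.

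Relative to the CCGG reads, the bodies of the deacetylase genes differed in opposite directions in treated over undifferentiated cells. Hdac1 had 21.4 scaled body reads in undifferentiated, 24.8 in untreated and 25.3 in treated cells, a log2 ratio of 0.21 (0.07 to 0.36) and 0.24 (0.09 to 0.40) over undifferentiated cells. This includes 3 positions that the reads gave as CCGG where the reference differs, with 44, 120 and 26 reads, and without them the Hdac1 ratios were 0.11 (-0.05 to 0.26) and 0.28 (0.12 to 0.44). Hdac2 had 24.2, 23.7 and 20.3 scaled body reads. Its log2 ratio was -0.03 (-0.17 to 0.11) in untreated cells and -0.25 (-0.42 to -0.09) in treated over undifferentiated cells, and -0.23 (-0.38 to -0.07) in treated over untreated cells. Scaled to mapped reads, both genes were lower in treated over undifferentiated cells, at -0.45 for Hdac1 and -0.95 for Hdac2. With CCGG scaling, both ratios lay between the 5th and 95th percentiles of all protein-coding genes (-0.66 and 0.67).

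Exons and introns of Hdac1 differed in the share of listed motifs. None of its 6 coding-exon motifs in the body was listed in any library, whereas 17, 17 and 16 motifs were listed among its 23 intron motifs. Each 30-base window around these 6 motifs matched 3 to 5 places of the genome with at most 1 mismatch, and reads mapping to more than 1 place were not kept by the authors. For the Hdac1 coding exons, an unlisted motif can therefore not be read as a lack of methylation, and why these motifs were unlisted was not tested. Over all members, 32 motifs had such copies, and 4, 9 and 9 of them were listed, against 387, 400 and 425 of the 741 motifs with 1 place. In contrast, 4 of the 5 Hdac2 coding-exon motifs in the body were listed in each library, with 141, 200 and 128 reads. All but 1 of the promoter motifs had windows with a single place.

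Among the NuRD genes, the body of Chd4 had 34.1, 38.1 and 38.7 scaled reads in undifferentiated, untreated and treated cells. Its log2 ratio over undifferentiated cells was 0.16 (0.04 to 0.27) and 0.18 (0.06 to 0.31), so both day 7 libraries were higher by a small amount. Mta1 had 40.0, 34.2 and 37.6 scaled body reads, with a ratio of -0.22 (-0.34 to -0.11) in untreated and -0.09 (-0.21 to 0.03) in treated over undifferentiated cells. Mta2 had 9.74, 9.11 and 7.99, with a ratio of -0.29 (-0.55 to -0.03) in treated over undifferentiated cells. The 5 body motifs of Mbd3 gave 6.04, 6.11 and 6.48 scaled reads, and no interval left out 0.

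By feature, most motifs of coding exons and of introns were listed. In the bodies, 43, 43 and 41 of 60 coding-exon motifs were listed (undifferentiated, untreated and treated cells), beside 149, 141 and 145 of 193 motifs in later introns and 19, 21 and 20 of 25 in first introns outside the promoter. Without the 6 Hdac1 coding-exon motifs, 43, 43 and 41 of 54 coding-exon motifs were listed (79.6, 79.6 and 75.9%). The median scaled reads of listed motifs were 1.04, 0.955 and 1.20 in coding exons and 0.949, 0.900 and 0.970 in later introns.

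Single sites varied more than the genes. Among member sites with at least 20 reads in 1 of the libraries compared, 43 of 296 were at least 2-fold higher and 53 lower in untreated than in undifferentiated cells (background over all CCGG sites, 17.0 and 18.1%). In treated over undifferentiated cells, 56 of 295 were higher and 62 lower (20.5 and 20.6%), and in treated over untreated cells 21 of 275 were higher and 19 lower (9.25 and 6.74%). These shares of 14.5 and 17.9%, 19.0 and 21.0%, and 7.64 and 6.91% were near the background.

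Most of the sites with the largest differences were intronic or lay outside the genes, as did most body and flank motifs of the members. The Rcor1 intron 2 site at chr12:111046119-111046122 had 61 reads in undifferentiated cells and was not listed in either day 7 library, which is at least 17.7-fold lower in untreated and at least 12.4-fold lower in treated cells with the absent site set to 4 reads. The Rcor1 intron 3 site at chr12:111083585-111083588 had 75, 5 and 6 reads, 17.4-fold lower in untreated and 10.2-fold lower in treated cells. In Kdm1b, the intron 3 site at chr13:47050159-47050162 had 48, 0 and 7 reads. Rcor1 and Kdm1b thus each held sites that were covered before differentiation and nearly without reads on both day 7 lists. Within intron 1 of Mta1, the site at chr12:113103062-113103065 had 53, 20 and 0 reads, with the untreated library in between.

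Other sites had more reads on day 7, and those of Mta2 were not listed in undifferentiated cells. The Mta2 coding-exon site at chr19:8944054-8944057 was unlisted in undifferentiated cells and had 40 reads in untreated and 21 in treated cells. The site 1671 bp upstream of Mta2, inside the neighbouring genes Eml3 and Gm10353, had 0, 49 and 14 reads. The site 1043 bp downstream of Mbd3 had 5, 46 and 71 reads, and the one 5580 bp downstream of Rcor1 had 10, 69 and 83. At both of these downstream sites the day 7 libraries were several times above the undifferentiated one, with log2 ratios of 4.12 (2.83 to 5.79) in Mbd3 and 3.35 (2.40 to 4.46) in Rcor1 for treated over undifferentiated cells.

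Other sites differed between the treated and untreated libraries. In Chd4 intron 22, the site at chr6:125111413-125111416 had 34 reads in treated cells and was not listed elsewhere, at least 12.1-fold higher than in untreated cells. In Mta1 intron 9, chr12:113127892-113127895 had 30 reads in treated cells alone. A site 2785 bp downstream of Rcor2, inside Mark2, had 9, 0 and 24 reads. Lower in treated cells were the site 7076 bp downstream of Chd4, inside Nop2, with 18, 48 and 7 reads, and the site 9136 bp upstream of Rcor2, with 53, 79 and 14 reads. These sites are the extremes of many and were picked for their size, so their values are a description.

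In the 10 kb flanks, 159 of 274 motifs were listed in undifferentiated (58.0%), 162 in untreated (59.1%) and 181 in treated cells (66.1%), against 55.0, 56.5 and 57.9% over all protein-coding genes. Flank motifs within 1 kb of a start site of another gene had 11, 17 and 21 of 80 listed, and those elsewhere 148, 145 and 160 of 194, so most unlisted flank motifs of the members lay beside start sites of neighbours such as Marcksl1, Mex3d, Uqcr11 and Nop2. The flank of Mbd3 had 7.75, 8.08 and 12.6 scaled reads, a log2 ratio of 0.64 (0.41 to 0.87) for treated over untreated cells, and 71 of its 324 reads in treated cells came from the downstream site above. The flank of Hdac1 had 16.0, 11.1 and 14.7, lowest in untreated cells with a ratio of -0.53 (-0.73 to -0.34) over undifferentiated cells. The flanks of Mta1 had 44.0, 36.6 and 37.2, lower in both day 7 libraries, as was its body in untreated cells.

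The other 22 genes of these complexes, among them the NuRD subunits Chd3, Mbd2, Mta3 and Rbbp4 and the CoREST subunits Rcor3, Phf21a and Hmg20b, had the same order of promoter listing. Of their 507 promoter motifs, 29, 56 and 70 were listed in undifferentiated, untreated and treated cells, beside 16.7, 22.4 and 26.4% over all protein-coding promoters. Of the 21 of these genes with enough body reads, 2 passed 1.5-fold higher in untreated over undifferentiated cells (Gfi1 and Hmg20b) and 0 passed lower (background, 4.49 and 5.58%). In treated over undifferentiated cells 3 passed higher (Gfi1, Hmg20b and Insm1) and 2 lower (Rbbp4, a histone chaperone, and Zmym3), beside a background of 6.40 and 6.65%. In treated over untreated cells 1 passed higher (Insm1) and 0 lower (3.41 and 1.71%). With 21 genes, these few calls do not set them apart from all genes. GFI1 and INSM1 are transcription factors that bind LSD1. The median body log2 ratios of these genes were 0.03, 0.04 and -0.04, beside -0.01, -0.05 and 0.03 for the 10 members.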

How the data were processed

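MethylRAD libraries of 3 conditions, with 1 library each, were used. The authors removed low-quality reads and adapters, mapped reads with an FspEI site to GRCm38 and kept those with a single place. The submitters' processing notes name FastQC 0.11.3 and Bowtie2 2.3.3. The deposited tables give per site the count of reads (not normalized, minimum 5) and an RPM value, which the authors computed relative to the mapped reads. The counts were used here, and RPM only to recover the mapped reads. Sites were assigned with GENCODE M21 basic transcripts on GRCm38: promoters (1 kb on each side of a start site), then bodies, then 10 kb flanks. Log2 ratios have exact conditional binomial intervals and shares have exact Clopper-Pearson intervals (95%). PCR copies were not separated, and a fragment that holds neighbouring motifs could be counted at each of them. CpG content was classed in 500 bp windows (high: CpG ratio over 0.75 and GC over 55%, low: CpG ratio under 0.48). Genes were called past 1.5-fold with at least 100 body reads in both libraries together, and sites past 2-fold with at least 20 reads in 1 library, with absent sites as 4 reads. The 3 sites with the largest fold per comparison and direction were named, as were all members. The promoter sites and flanks described singly were chosen after their values were seen. The members and lists were chosen with earlier results of these data known. Alternatives were other scalings, minimums, thinning with a fixed seed, promoter and flank widths, all transcripts, reference motifs only and other folds. The values of single genes without some of their sites were added after seeing the data. The functions were tested on simulated data. Tables were read with pandas 2.3.3 and numpy 2.4.6 under Python 3.11.15, intervals came from SciPy 1.17.1, and plots from matplotlib 3.10.9. CCWGG sites were not used in the comparisons, since the CCTGG counts were shared between tables (269719 of 269719 equal in the treated and untreated tables).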

Additional observations from a re-analysis of the deposited data

Results flagged for a closer look

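Outside the CCGG measurement, 508 CCAGG sites with 7051 reads were listed in and within 10 kb of the 10 genes in the treated table, against 160 sites with 2676 reads in the undifferentiated and in the untreated table, whose CCAGG counts were nearly identical to each other. Over the whole undifferentiated and untreated tables, 268315 of 268383 shared CCAGG sites had equal counts. The numbers of CCAGG sites over all genes were not set beside those of the members. The difference is therefore not a result about the 10 genes.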

How the results depend on the processing

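With 1 library per condition, no library could be left out and no spread between replicates is known. No paired analysis was possible because each condition had 1 library. Of 165 alternative values, 37 lay outside the counting interval or 1.5 times the count. Some of the others could not differ by construction, such as the 2-fold rule on 0 called members, so their number is no measure of stability. With the mapped reads behind RPM, the body log2 ratios were -0.35, -0.78 and -0.43 (untreated over undifferentiated, treated over undifferentiated, treated over untreated), 7 members passed lower in treated over undifferentiated (70.0% of all protein-coding genes) and 2 (Hdac2 and Kdm1b) in treated over untreated cells (16.4%), as the shift is common to all genes. The ratio of treated over untreated cells then turned from 0.24 to -0.13 in promoters and from 0.09 to -0.28 in flanks. With 5 kb flanks, the flank ratio of treated cells was 0.28 over untreated and 0.19 over undifferentiated cells. The median-ratio scaling gave -0.11 and -0.16 for the bodies over undifferentiated cells, and the median over members 0.03 for treated over untreated cells. Listed promoter motifs (undifferentiated, untreated, treated) were 51, 69 and 78 of 270 with the start sites of all transcripts and 3, 9 and 12 of 72 upstream only. A width of 2 kb gave 22 in undifferentiated cells. A minimum of 10 reads gave 11 in untreated and 14 in treated cells and turned the promoter ratio of treated over untreated cells to -0.0028, and thinning gave 15 in untreated cells. Beyond these constructions, the cause of each change was not tested. Differences under 5 reads per site cannot be seen at this depth.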
